A study of Mus musculus with 8 samples.

Results

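The interleukin-6 (IL-6) family and interleukin-10 (IL-10) signaling genes examined here were the ligands Il6, Osm, Lif and Il10, the receptor chains Il6ra, Il6st, Osmr and Il10ra, and the feedback inhibitors Socs1 and Socs3. They were found by gene symbol, and all 10 were in the tables of both diets, which held 16136 genes in common and 18040 in all. RNA-seq had been run on macrophages sorted from the epididymal white adipose tissue (eWAT) of wild-type male C57BL/6J mice, in 8 libraries. Adhesion-related macrophages (ARMs) came from the floating adipocyte layer of the digested tissue, which was vortexed with beads to lyse the adipocytes. Macrophages of the stromal vascular fraction (SMs, labelled NARM) came from the pellet, for which no such step is described. Mice were fed a high-fat diet (HFD) for 8 weeks from 6 weeks of age, or a normal chow diet (ND). The 4 groups had 2 libraries each, and a library pooled 6 HFD or 10 ND mice. Diet was the only treatment labelled, and all groups were wild type. The p-values therefore measure the spread between pools, and single mice cannot be seen.

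As background, the ligands of the IL-6 family signal through receptor complexes that share the chain gp130, the product of Il6st. IL-6 binds IL-6 receptor alpha (Il6ra), oncostatin M (Osm) binds gp130 with the oncostatin M receptor (Osmr), and leukemia inhibitory factor (Lif) binds gp130 with Lifr. IL-10 signals through Il10ra and Il10rb. Both kinds of complex use JAK kinases and the transcription factor STAT3. SOCS proteins are encoded by STAT-induced genes, and SOCS3 feeds back on the complexes that hold gp130. In adipose tissue, IL-6 and oncostatin M are known as macrophage products that act on adipocytes, and IL-10 as a macrophage cytokine that restrains inflammatory genes.

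The libraries held 14508824 to 19040133 estimated counts. All 80 member counts, from 27 for Lif in an ND SM library to 15701 for Socs3 in an HFD SM library, were whole numbers, so none had been shared out with a near-identical gene. The macrophage label was borne out in both cell types, with none of 8 macrophage markers called between ARMs and SMs in either diet and a summed level of 7638 to 9995 FPKM (fragments per kilobase of transcript, scaled to library size) in every library. ARM libraries also carried more transcripts of other adipose cells, given beside Osmr below. Of the T and NK cell, B cell, neutrophil and mast cell markers, Cd4 and Kit were called higher in ARMs on HFD and S100a9 lower in ARMs on ND, at 1.83 to 4.13 FPKM for Cd4, 0.20 to 0.72 FPKM for Kit and 6.94 to 37.8 FPKM for S100a9. The other markers of these lists were not called or too low to test. Cd3e, Cd3d and Cd3g had at most 0.56 FPKM in any library. On HFD the log2 difference was -0.23 for Cd8a, 0.86 for Klrb1c and -0.46 to 0.45 for the other mast cell markers. On ND it was -1.36 to 0.38 for the other neutrophil markers tested. In bulk samples, fewer cells of a type and less RNA per cell cannot be told apart.

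By position in the mouse build GRCm38 (mm10), the 10 genes lie on 8 chromosomes in the RefSeq annotation. Il6 spans chr5:30013114-30019975, Il10 spans chr1:131019845-131024970, Osmr spans chr15:6813568-6874968 and Socs3 spans chr11:117966079-117970336. Osm at chr11:4236785-4241026 and Lif at chr11:4257568-4272514 are neighbours, 16.5 kb apart, with no other gene of the annotation table between them. The RefSeq table of promoters (250 bases before to 50 after a start site) held 7 of the 10 genes, namely Il6, Lif, Il6ra, Il6st, Osmr, Socs1 and Socs3. The 250 bases before the start of Il6 and Lif are shown as upstream stretches of 2 ligand genes compared below, on the plus strand, at chr5:30012864-30013113 and chr11:4257318-4257567. Capitals mark matches, on either strand, to the AP-1 motif TGANTCA, which the Fos and Jun families bind, and, in Il6, to the kappa B motif of the NF-kappa B factors.
Il6: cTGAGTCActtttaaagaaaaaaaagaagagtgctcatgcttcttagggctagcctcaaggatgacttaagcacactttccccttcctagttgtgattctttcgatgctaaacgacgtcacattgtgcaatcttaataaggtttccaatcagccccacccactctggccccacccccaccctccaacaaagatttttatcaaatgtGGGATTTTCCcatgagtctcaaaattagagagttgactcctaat
Lif: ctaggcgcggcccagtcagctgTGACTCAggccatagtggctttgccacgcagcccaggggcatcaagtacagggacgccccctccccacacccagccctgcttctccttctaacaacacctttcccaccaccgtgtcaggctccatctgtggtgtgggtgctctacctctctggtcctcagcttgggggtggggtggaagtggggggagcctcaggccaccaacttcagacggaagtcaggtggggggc
In Il6 the AP-1 match TGAGTCA began 249 bases before the start site and the kappa B match GGGATTTTCC 44 bases before it. In Lif the AP-1 match TGACTCA began 228 bases before the start. The STAT motif TTCNNNGAA was matched in Socs3 alone among the 7, as TTCTTAGAA, 154 bases before the start listed in the promoter table. An AP-1 match TGATTCA lay at position 3 after the listed start in Osmr. Both genes lie on the minus strand, and in each the listed start lay inside the gene span given above. None of the 7 held the CRE motif TGACGTCA. Of all 32851 RefSeq promoters, 7.81% held TGANTCA, 8.3% TTCNNNGAA, 4.51% the kappa B motif and 1.79% TGACGTCA. These are letter matches and do not show binding.

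Levels of the 10 genes spanned more than 2 orders of magnitude in FPKM, a scale per transcript length. In all 4 groups Socs3 was the highest (222 to 341 FPKM as group means), followed by Il10 (110 to 164), which placed both above 96.0% of the genes with any reads in every group. Il10ra was next in all 4 groups at 81.1 to 93.7 FPKM. Il6ra, Osm, Il6 and Il6st lay between 29.6 and 74.6 FPKM, and their order depended on the group. In ND mice the Il6ra and Il6 libraries overlapped in both cell types, in ND SMs those of Osm and Il6st overlapped, and in HFD ARMs those of Il6 and Il6st did. Socs1 was low, at 2.99 to 7.06 FPKM. Lif and Osmr were the lowest, at 0.595 to 0.990 and 0.510 to 1.84 FPKM, and they overlapped each other in every group except HFD ARMs. As a ratio of FPKM, Il10 exceeded Il6 by 2.18 times in ND SMs and 4.75 times in HFD ARMs. Osm exceeded its neighbour Lif by 43.5 to 66.4 times. Lifr, which pairs with gp130 as Osmr does, exceeded Osmr by 25.4 times in HFD ARMs and by 127 times in ND SMs.

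**Figure D1:**
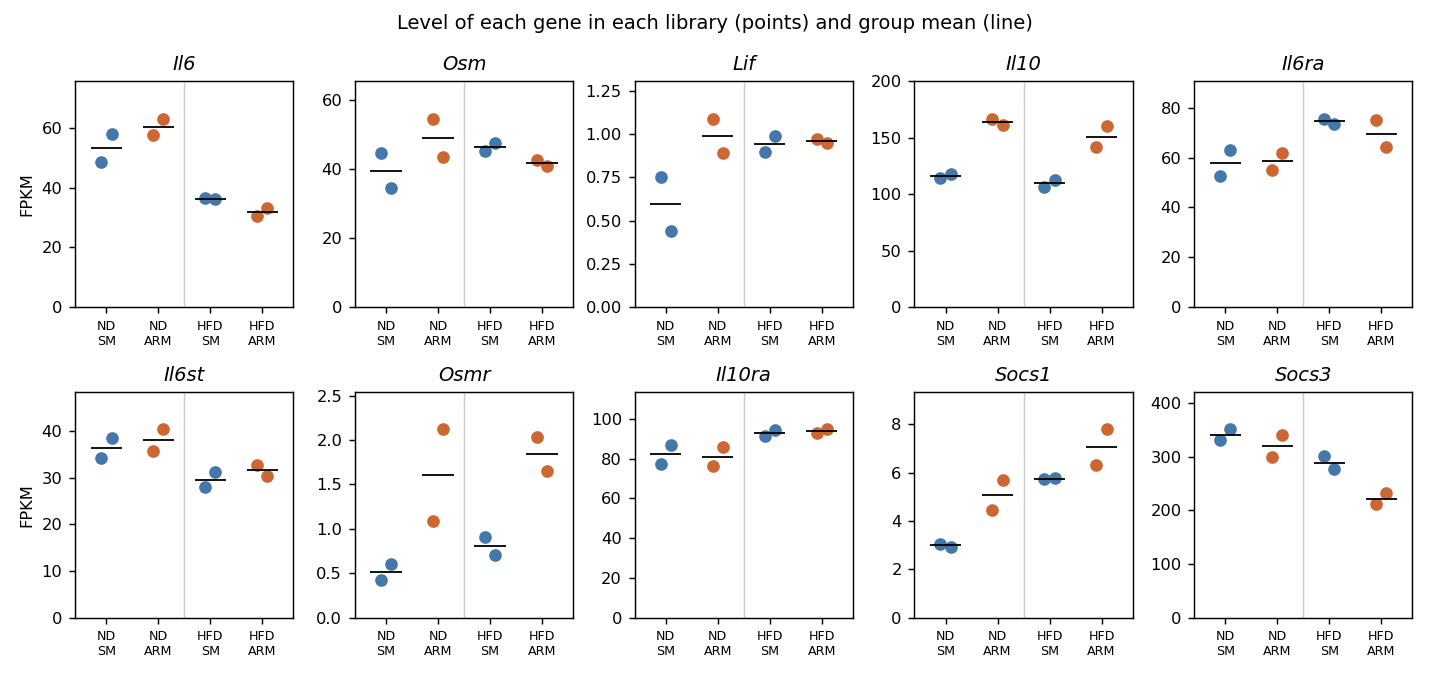
Level of each gene in FPKM (y axis, from 0, own range per panel) in the 4 groups, with 1 point per library (orange ARMs, blue SMs) and a line at the mean of the 2 libraries. Both ARM libraries lie above both SM libraries in both diets for Il10, Osmr and Socs1, and all 4 HFD libraries lie below all 4 ND libraries for Il6.

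ARMs were first compared with SMs in HFD mice. Osmr and Il10 were higher and Socs3 was lower in ARMs, while the receptor chains Il6ra, Il6st and Il10ra and the ligand Lif showed small differences that did not pass the test. Calling a gene took a change of more than 1.5-fold together with an adjusted p below 0.05, from the quasi-likelihood test of edgeR and the Benjamini-Hochberg method over the 13337 genes tested. By that rule 1 of the 10 genes was called, Osmr, where 4.75% of all genes were called and 4.46% were called higher. At an adjusted p under 0.05 and any fold, 3 of 10 passed, where 9.55% of all genes passed. Osmr and Il10 were higher, as 6.53% of all genes were, and Socs3 was lower, as 3.02% were. The median log2 difference of the 10 was -0.0014 against -0.0064 over all genes tested.

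The same comparison in ND mice gave Osmr and Il10 higher in ARMs, and no gene lower. Again 1 of the 10 genes was called, Osmr, where 3.68% of the 12441 genes tested were called and 3.55% were called higher. At any fold 2 of 10 passed, where 4.73% of all genes passed and 4.28% passed as higher. The median log2 difference of the 10 was 0.25 in ND mice, against -0.02 over all genes tested. For one gene taken alone, the smallest two-sided p of an exact permutation test of 2 libraries against 2 is 0.333, so the adjusted p-values draw on a spread shared across genes.

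Among the ligands, Il10 had 142 and 160 FPKM in the HFD ARM libraries and 107 and 113 FPKM in the HFD SM libraries. In ND mice it had 167 and 162 FPKM in ARMs and 114 and 118 FPKM in SMs. Both ARM libraries were thus above both SM libraries in each diet, as 26.3% of all genes were in HFD mice and 21.2% in ND mice. Il10 was 1.35 times as high in ARMs on HFD (log2 difference 0.43 ± 0.07 SE, n = 2 libraries a group, edgeR adjusted p = 0.00411) and 1.41 times on ND (0.50 ± 0.09, edgeR adjusted p = 0.00475). Its adjusted p rose to 0.106 without the second HFD ARM library and to 0.0655 without the first ND SM library, and on HFD to 0.0718 with no filter on low counts.

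Il6 had 30.5 and 33.1 FPKM in the HFD ARM libraries against 36.4 and 36.2 FPKM in the HFD SM libraries. In ND mice it had 57.6 and 63.0 FPKM in ARMs and 48.6 and 57.8 FPKM in SMs. On HFD the ARM libraries were both below the SM libraries, as they were for 26.4% of all genes, and on ND the groups overlapped. Neither difference passed, with a log2 value of -0.22 on HFD (95% interval -0.38 to -0.06, edgeR adjusted p = 0.0885) and 0.18 on ND (-0.06 to 0.42, edgeR adjusted p = 0.541).

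Osm had 42.6 and 40.9 FPKM in the HFD ARM libraries and 45.2 and 47.6 FPKM in the HFD SM libraries, again with the ARM libraries below. In ND mice the values were 54.5 and 43.5 FPKM in ARMs and 44.7 and 34.4 FPKM in SMs, which overlapped. The log2 difference was -0.18 on HFD (95% interval -0.33 to -0.03, edgeR adjusted p = 0.133) and 0.31 on ND (0.03 to 0.59, edgeR adjusted p = 0.259), so it did not pass in either diet. Lif, at 50 to 77 counts per ARM library and 27 to 79 per SM library, had the widest intervals of the 4 ligands. Its FPKM was 0.97 and 0.95 in HFD ARMs, 0.90 and 0.99 in HFD SMs, 1.09 and 0.89 in ND ARMs, and 0.75 and 0.44 in ND SMs. On the log2 scale the ARM libraries differed from the SM libraries by 0.01 on HFD (-0.40 to 0.43) and by 0.76 ± 0.31 SE on ND (edgeR adjusted p = 0.237).

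Of the receptor chains, Osmr alone was called. It had 179 and 140 counts in the HFD ARM libraries and 82 and 64 counts in the HFD SM libraries, or 2.03 and 1.65 FPKM against 0.91 and 0.71 FPKM. In ND mice it had 82 and 139 counts in ARMs and 29 and 45 counts in SMs, or 1.09 and 2.12 FPKM against 0.42 and 0.60 FPKM. Every ARM library exceeded every SM library, and the second ND ARM library stood far above the first. Osmr was 2.22 times as high in ARMs on HFD (log2 difference 1.15 ± 0.19 SE, 95% interval of the fold 1.65 to 2.98, edgeR adjusted p = 0.00440) and 3.02 times on ND (1.60 ± 0.31, 1.90 to 4.81, edgeR adjusted p = 0.00704). Without the second ND ARM library the log2 difference was 1.06 (edgeR adjusted p = 0.169), and without the first HFD ARM library it was 0.95 (edgeR adjusted p = 0.0864). The HFD call was also lost with no filter on low counts (edgeR adjusted p = 0.0791), and the ND call with limma on log2(FPKM + 0.1) (adjusted p = 0.107).

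Markers of other adipose cells moved in the same direction as Osmr. Of 8 adipocyte markers, 7 were called higher in ARMs on HFD and 5 on ND. Their summed level was 90.4 and 99.5 FPKM in HFD ARMs against 27.7 and 30.1 FPKM in HFD SMs, and 85.5 and 145 FPKM in ND ARMs against 42.9 and 52.7 FPKM in ND SMs. Of 8 fibroblast and progenitor markers, 5 were called higher on HFD and 7 on ND, with sums of 169 and 209 FPKM against 124 and 112 FPKM on HFD, and 224 and 324 FPKM against 79.4 and 108 FPKM on ND. In the second ND ARM library, where Osmr was higher than in the first, both sums were also higher. The HFD ARM libraries had the reverse order, with Osmr higher in the first library and both sums higher in the second. Of 8 endothelial markers, 8 were called higher on HFD (48.9 to 51.3 FPKM in ARMs, 14.3 to 20.5 FPKM in SMs) and none on ND (12.2 to 27.0 FPKM in ARMs, 10.4 to 11.7 FPKM in SMs). Mesothelial markers were called for 0 of 6 genes on HFD and 5 of 6 on ND, and those of pericytes and smooth muscle for 2 of 6 and 1 of 6. In ARMs of both diets the endothelial, mesothelial and pericyte sums were all higher in the library with the higher Osmr. In the first and second HFD ARM libraries they were 51.3 and 48.9, 15.8 and 11.3, and 27.3 and 24.5 FPKM. In the ND ARM libraries they were 12.2 and 27.0, 17.0 and 22.6, and 7.94 and 11.1 FPKM. No marker in these 5 lists was at 0 in all libraries of a group. Their part in the Osmr difference was not tested.

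Il6ra, the ligand-binding chain for IL-6, had 75.0 and 64.3 FPKM in HFD ARMs, 75.6 and 73.6 FPKM in HFD SMs, 55.2 and 61.7 FPKM in ND ARMs, and 52.8 and 62.9 FPKM in ND SMs. Il6st, the shared gp130 chain, had 32.8 and 30.4 FPKM in HFD ARMs, 27.9 and 31.2 FPKM in HFD SMs, 35.7 and 40.4 FPKM in ND ARMs, and 34.3 and 38.6 FPKM in ND SMs. Il10ra had 92.7 and 94.7 FPKM in HFD ARMs, 91.5 and 94.4 FPKM in HFD SMs, 76.5 and 85.7 FPKM in ND ARMs, and 77.3 and 87.0 FPKM in ND SMs. The libraries of ARMs and SMs overlapped for all 3 chains in both diets. The 95% intervals of the log2 difference were -0.30 to 0.05 for Il6ra, -0.10 to 0.24 for Il6st and -0.15 to 0.12 for Il10ra on HFD. On ND they were -0.21 to 0.25 for Il6ra, -0.16 to 0.28 for Il6st and -0.23 to 0.20 for Il10ra, so that a difference as large as the 1.5-fold threshold lay outside all 6 intervals.

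Of the feedback inhibitors, Socs3, which binds gp130 and blocks JAK activity, had 212 and 232 FPKM in the HFD ARM libraries and 301 and 278 FPKM in the HFD SM libraries. In ND mice it had 299 and 340 FPKM in ARMs and 332 and 351 FPKM in SMs. The ARM libraries were the lower ones on HFD, and the groups overlapped on ND. Socs3 in ARMs was 0.753 times its level in SMs on HFD (log2 difference -0.41 ± 0.07 SE, edgeR adjusted p = 0.00432), while on ND the log2 difference was -0.09 (95% interval -0.31 to 0.13, edgeR adjusted p = 0.773). Leaving out the first HFD ARM library took the adjusted p on HFD to 0.0976, leaving out the second took it to 0.0567, and using no filter on low counts took it to 0.0715.

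Socs1, best known as an inhibitor of interferon signaling, had 6.32 and 7.79 FPKM in HFD ARMs and 5.72 and 5.79 FPKM in HFD SMs. In ND mice it had 4.44 and 5.68 FPKM in ARMs and 3.07 and 2.91 FPKM in SMs. In each diet the ARM libraries were the higher ones. The difference did not pass, at 0.25 on the log2 scale on HFD (95% interval -0.08 to 0.57, edgeR adjusted p = 0.356) and 0.75 on ND (0.23 to 1.27, edgeR adjusted p = 0.107). In one fit of all 8 libraries, Socs1 was called in ND mice beside Osmr.

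Whether the difference between ARMs and SMs itself depended on diet was tested as an interaction in one fit of all 8 libraries. None of the 10 genes passed an adjusted p under 0.05, where 0.165% of the 13358 genes tested did, and DESeq2 gave none either. With a block on the replicate number, which the labels do not give as a pairing, Osm passed (edgeR adjusted p = 0.0329). Without the block, 3 of 10 passed at an unadjusted p under 0.05, Il6, Osm and Socs3, against 7.61% of all genes. The difference on HFD minus that on ND was -0.41 for Il6 (95% interval -0.71 to -0.12, edgeR adjusted p = 0.372), -0.51 for Osm (-0.88 to -0.14, edgeR adjusted p = 0.393) and -0.33 for Socs3 (-0.59 to -0.07, edgeR adjusted p = 0.456), in log2 units. For Lif it was -0.77 (-1.54 to 0.01) and for Socs1 -0.52 (-1.08 to 0.04). For Osmr it was -0.46 (-1.36 to 0.45), for Il6ra -0.16 (-0.47 to 0.16) and for Il10 -0.08 (-0.32 to 0.16). The value was below 0 for 10 of 10 genes, as it was for 55.3% of all genes, but those of Il10ra and Il6st, at -0.02 and -0.01, were above 0 with library totals in place of TMM factors (trimmed mean of M values), with DESeq2 and with a filter of 10 counts.

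**Figure D2:**
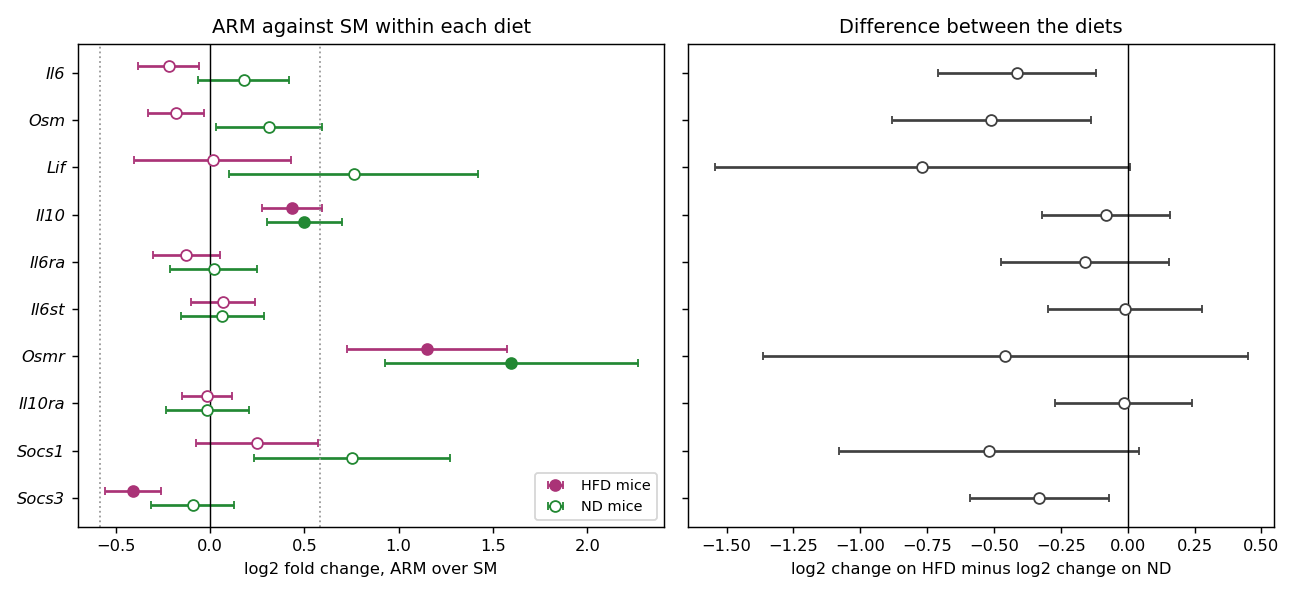
Left, log2 fold change of ARMs over SMs for each gene in HFD and ND mice. Right, the change on HFD minus the change on ND from one fit of all 8 libraries. Points are edgeR estimates with 95% intervals, filled where the adjusted p was under 0.05, and dotted lines mark the 1.5-fold threshold. Osmr lies beyond that line in both diets, at 1.15 and 1.60, and no point on the right is filled.

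Across the 8 libraries, after the mean of each diet was taken from log2 CPM (counts scaled to library size), the neighbouring genes Osm and Lif varied together, with a Pearson r of 0.89. Il10 and Osmr gave an r of 0.86, Osmr and Socs1 0.86, Il10 and Socs1 0.86, and Il10 and Socs3 -0.71. These values describe 8 libraries, 4 of each cell type, so a difference between ARMs and SMs that 2 genes share enters their r. For Osm and Lif, the first ND library exceeded the second in each cell type. That difference between replicate numbers also enters their r. By the same measure over 11727 genes, the genes most like Il10 were Mmp13 (r = 0.996), Fem1b (0.987) and Bcl2a1b (0.985). Those most like Osm were Rbm7 (0.981), Tpp2 (0.978) and Mylip (0.970), and those most like Lif were Slc30a7 (0.975), Nup50 (0.973) and Car13 (0.971). For Il6 they were Cacnb4 (0.961), Asah2 (0.960) and Nfix (0.960).

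HFD and ND levels are given side by side without a test. The tables of the 2 diets are separate and differed in the share of genes with a count that was not whole. That share was 32.3% to 32.9% in HFD libraries and 8.55% to 9.36% in ND libraries. Diet and table therefore cannot be told apart. In FPKM, 18 of 20 pairs of gene and cell type had both HFD libraries apart from both ND libraries, where 71.7% of all genes were apart in ARMs and 73.8% in SMs. Il6 was lower on HFD in both cell types, at 31.8 ± 1.81 FPKM (SD, n = 2) against 60.3 ± 3.85 FPKM in ARMs and 36.3 ± 0.120 against 53.2 ± 6.48 FPKM in SMs. The log2 ratio for Il6 was -0.92 in ARMs and -0.55 in SMs, where the median over all genes was -0.09 and -0.12. In TMM-normalized CPM, which does not use transcript length, it was -0.74 and -0.32. The transcript length implied by counts and FPKM was 1.13 times as long in the HFD table as in the ND table for Il6, and 1.02 to 1.14 times over the 10 genes.

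Socs1 was higher on HFD, at 7.06 ± 1.04 FPKM against 5.06 ± 0.877 FPKM in ARMs and 5.76 ± 0.0495 FPKM against 2.99 ± 0.113 FPKM in SMs. Socs3 was lower, at 222 ± 14.5 FPKM against 319 ± 28.9 FPKM in ARMs and 289 ± 16.3 FPKM against 341 ± 13.9 FPKM in SMs. The 2 inhibitors thus differed between diets in opposite directions in each cell type, and on the FPKM, TPM (as FPKM, with a fixed total per library) and CPM scales alike. Il10ra and Il6ra were higher on HFD in both cell types (log2 ratios of 0.21 and 0.25 in ARMs, 0.18 and 0.37 in SMs), and Il6st was lower (-0.27 and -0.30). Osm was lower on HFD in ARMs (-0.23, with overlapping libraries in CPM) and higher in SMs (0.23). Lif and Osmr overlapped between diets in ARMs and were higher on HFD in SMs (0.59 and 0.58). Il10 was slightly lower on HFD in FPKM (-0.12 in ARMs, -0.08 in SMs) and slightly higher in CPM (0.04 and 0.12), so its direction depended on the scale.

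**Figure D3:**
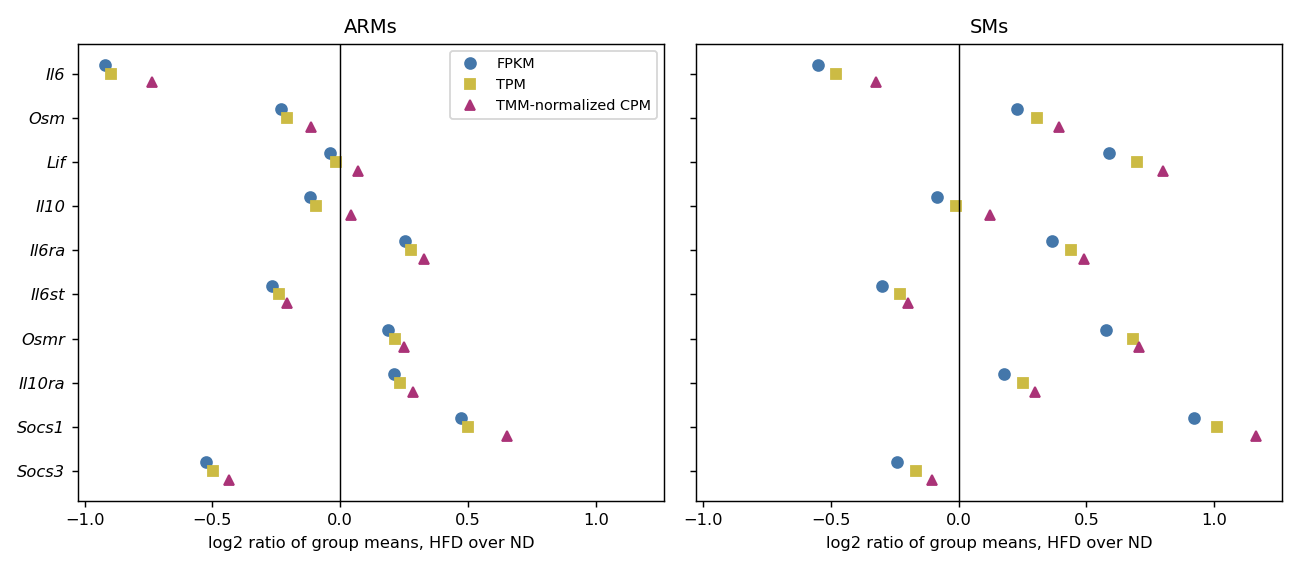
Log2 ratio of the group means, HFD over ND, for each gene in ARMs (left) and SMs (right) on 3 scales (circles FPKM, squares TPM, triangles TMM-normalized CPM), with 2 libraries a group and no test. Il6, Il6st and Socs3 lie below 0 and Il6ra, Il10ra, Osmr and Socs1 above 0 in both cell types on all 3 scales, while Il10 crosses 0.

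The other ligands and receptors of the 2 families were then counted. Of 7 other IL-6 family ligands, 5 were tested on HFD and 4 on ND, and Clcf1, a ligand of the CNTF receptor complex, was called higher in ARMs in both diets. Clcf1 had 9.52 and 11.5 FPKM in HFD ARMs against 3.89 and 5.05 FPKM in HFD SMs, and 4.09 and 6.26 FPKM in ND ARMs against 2.91 and 2.76 FPKM in ND SMs. Its log2 difference was 1.21 ± 0.14 SE on HFD (edgeR adjusted p = 0.000541) and 0.87 ± 0.23 on ND (edgeR adjusted p = 0.0409). On ND the call was lost with DESeq2 (adjusted p = 0.164) and without the second ARM library (edgeR adjusted p = 0.454), the first SM library (0.127) or the second SM library (0.125). Ebi3, the chain that IL-27 shares with IL-35, passed on HFD at 0.40 (edgeR adjusted p = 0.00619). No receptor among the 3 other IL-6 family chains tested was called, and the LIF receptor Lifr stood at -0.21 on HFD and -0.20 on ND. Of the other IL-10 family genes, 2 of 9 were tested and none was called, and the partner chain Il10rb stood at 0.07 in both diets.

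Of 11 JAK kinases and STAT factors, none was called in either diet. Stat3, the factor on which both families converge, had 170 and 188 FPKM in ND ARMs against 127 and 141 FPKM in ND SMs and passed at a log2 difference of 0.42 ± 0.10 SE (edgeR adjusted p = 0.0253). Its adjusted p was 0.250 without the second ND ARM library and 0.319 without the first ND SM library. On HFD the Stat3 libraries overlapped, at 136 and 125 FPKM in ARMs against 126 and 131 FPKM in SMs, and the difference between diets did not pass (-0.45, edgeR adjusted p = 0.209). Jak1 stood at -0.08 on HFD and 0.17 on ND. Of 14 other inhibitors of JAK-STAT signaling, the remaining SOCS, PIAS and phosphatase genes, none passed at any fold in either diet.

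Of 16 STAT3 target genes, Hp, which encodes haptoglobin, was called higher in ARMs in both diets and Myc in ND mice. Hp had 10.9 and 12.5 FPKM in HFD ARMs against 2.96 and 2.45 FPKM in HFD SMs (log2 difference 2.08 ± 0.15 SE, edgeR adjusted p = 2.7e-05) and 17.2 and 23.6 FPKM in ND ARMs against 10.1 and 8.70 FPKM in ND SMs (1.11 ± 0.17, edgeR adjusted p = 0.000881). Hp is also made by adipocytes, whose markers moved the same way, and their part in its difference was not tested. Myc stood at 0.81 ± 0.17 on ND (edgeR adjusted p = 0.0110, and 0.229 without the second ND ARM library) and at 0.21 on HFD (edgeR adjusted p = 0.0815). At any fold, 2 of the 16 were higher and 5 lower on HFD, where 6.53% of all genes were higher and 3.02% lower. On ND 4 of the 16 were higher and 1 lower, where 4.28% of all genes were higher and 0.458% lower. The lower ones were Junb, Fos, Cebpb, Cebpd and Il4ra on HFD and Fos on ND. The lists overlap, so Fos and Junb are counted again among the immediate-early genes below. Il4ra on HFD and Bcl3, higher on ND, are counted again among the IL-10 response genes. The median log2 difference of the 16 was 0.02 on HFD and 0.23 on ND, against -0.0064 and -0.02 over all genes tested.

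Of 12 genes known to respond to IL-10 in macrophages, Il1rn, which encodes the IL-1 receptor antagonist, was called higher in ND ARMs, at 94.0 and 104 FPKM against 51.4 and 58.7 FPKM in SMs (log2 difference 0.85 ± 0.10 SE, edgeR adjusted p = 0.000238). On HFD no gene of the list was called. At any fold, 1 was higher on HFD (Il1rn, 0.46, edgeR adjusted p = 0.0271, and 0.288 without the second ARM library) and 5 were lower, Nfil3, Sbno2, Il4ra, Hmox1 and Cd163, while on ND 3 were higher and none lower. The shares over all genes were 6.53% higher and 3.02% lower on HFD, and 4.28% higher and 0.458% lower on ND. Il10 itself was higher in ARMs in both diets. The median log2 difference of the 12 was -0.15 on HFD and 0.09 on ND, against -0.0064 and -0.02 over all genes tested.

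The immediate-early and heat shock genes, which respond to cell handling as well as to cytokines, were examined beside these lists. On HFD, 7 of 15 were lower in ARMs at any fold, Fos, Jun, Junb, Ier2, Ier3, Atf3 and Hspa1a, with log2 differences from -0.41 to -0.24, beside -0.41 for Socs3, where 3.02% of all genes were lower. On ND, Fos, Jun and Ier2 of the 15 were lower, where 0.458% of all genes were, and Fosl1, a Fos family gene, was called higher at 0.83 (edgeR adjusted p = 0.000715). The sorts of ARMs and SMs started from different fractions of the tissue, and only the adipocyte layer is described as vortexed with beads. Handling and cell type therefore cannot be told apart, and the part of these genes in the Socs3 difference was not tested.

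**Figure D4:**
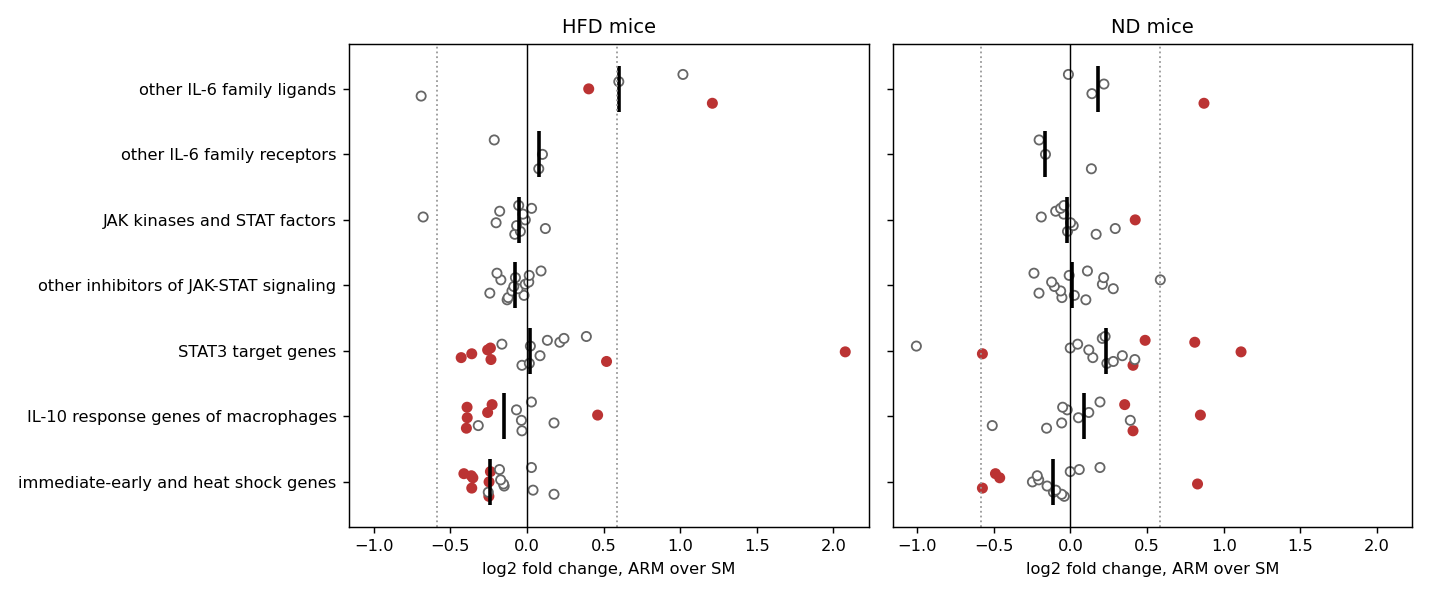
Log2 fold change of ARMs over SMs for every tested gene of 7 lists in HFD mice (left) and ND mice (right), with 1 point per gene, filled red where the edgeR adjusted p was under 0.05, a black bar at the list's median and dotted lines at the 1.5-fold threshold. Clcf1 at 1.21 and Hp at 2.08 lie farthest right among the filled points on HFD, and the points of the IL-10 response genes lie mostly below 0 on HFD.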

How the data were processed

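RNA-seq tables of 8 libraries were used, 2 for each of HFD ARMs, HFD SMs, ND ARMs and ND SMs. The authors deposited 2 tables, one a diet, that give each gene an estimated count (expected count), an FPKM and a TPM in every library. The build was mm10 per the submitters' processing notes. The aligner, the counting program and the annotation are not given in the sources used here. The share of genes with a count that was not whole was 32.3% to 32.9% in HFD libraries and 8.55% to 9.36% in ND libraries. Entrez IDs named the 26 HFD rows and 24 ND rows whose symbols were dates or blank.

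Counts were rounded and fitted for each diet with edgeR 4.0.16 in R 4.3.3 (TMM, filterByExpr, quasi-likelihood test, Benjamini-Hochberg adjustment over all genes tested). Calls needed a change of more than 1.5-fold and an adjusted p below 0.05. The diets' difference was an interaction in one fit of all 8 libraries. FPKM values were compared side by side between diets, with log2 ratios of means plus a pseudocount of 0.1. The members and lists were chosen with earlier results of these data known. All 10 genes were named in every library, and of the other lists every called gene up to 4 per list and diet, together with Lifr, Il10rb, Stat3 and Jak1 and, for each ligand, the 3 genes of highest correlation. Ebi3 and the other listed genes that passed without the fold threshold, Cd4, Kit and S100a9 were named after their values were seen.

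Alternatives were DESeq2, library totals, no filter, a minimum of 10 counts in each library, limma on log2(FPKM + 1) and log2(FPKM + 0.1), the threshold of the study's methods, a joint fit of the 4 groups, a block on the replicate number, each library left out, and TPM or CPM. On simulated data of this size, edgeR recovered 90.9% of genes changed by 1 log2 unit and 98% of those changed by 2 in the HFD comparison (13308 genes), with 2 false calls, and 88.9% and 98.0% in the ND comparison (12427 genes), with 1. The common biological coefficient of variation was 5.55% in HFD and 8.61% in ND mice. Every simulated gene was given that one value of its diet, and only changes of 1 and 2 log2 units were simulated. The recovery therefore does not cover spread that differs between genes, or smaller changes.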

Additional observations from a re-analysis of the deposited data

Results flagged for a closer look

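Of the listed genes, 2 had an ARM against SM difference that itself differed between the diets by the interaction test. They were 1 of the 12 IL-10 response genes and 1 of the 15 immediate-early and heat shock genes tested. The members and the other lists of signaling and target genes had none. Over all 13358 genes tested, 0.165% passed. Sbno2, a STAT3-induced gene of the IL-10 response, had 142 and 142 FPKM in HFD ARMs against 159 and 166 FPKM in HFD SMs, and 190 and 196 FPKM in ND ARMs against 149 and 154 FPKM in ND SMs. Its log2 difference was -0.23 on HFD and 0.35 on ND, and the HFD value minus the ND value was -0.60 (95% interval -0.82 to -0.38, edgeR adjusted p = 0.0380). That adjusted p was 0.0574 with library totals and reached 0.245 without the second HFD ARM library. It passed 0.05 in 1 of the 8 fits that left out a library.

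Fosl1, a Fos family gene, had 30.6 and 26.5 FPKM in HFD ARMs against 31.9 and 30.3 FPKM in HFD SMs, and 25.2 and 28.5 FPKM in ND ARMs against 15.4 and 14.8 FPKM in ND SMs. The HFD difference minus the ND difference was -0.997 (95% interval -1.31 to -0.69, edgeR adjusted p = 0.0167). The adjusted p was highest without the first ND SM library, at 0.130. Both genes came from lists chosen with earlier results known.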

How the results depend on the processing

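In HFD mice the count of called genes went from 1 to 0 with no filter on low counts and with limma on log2(FPKM + 1) without a filter, and was 0 to 1 with a library left out. The count at any fold went from 3 to 0 in both of those settings and was 1 to 3 with a library left out. In ND mice the count went from 1 to 3 at the threshold of the study's methods (Socs1, Lif and Osmr), to 2 in one fit of all 8 libraries, and to 0 with limma at either pseudocount or without a filter, and was 0 to 1 with a library left out. At any fold it went from 2 to 1 with limma at either pseudocount, to 0 with limma without a filter, and was 1 to 2 with a library left out. The cause was not tested. Same-numbered libraries deviated together with a correlation of 0.0836 in HFD and 0.302 in ND mice, and with 2 pairs and no word in the labels the numbers were not taken as pairing. With the replicate block, 3 genes were called in ND mice (Osmr, Socs1 with an edgeR adjusted p of 0.0127, and Lif with 0.0444) and 5 at any fold, with Il10 and Osm (0.00851) added, and the HFD count stayed at 1. For the difference between diets the count went from 0 to 1 with the block (Osm, -0.51, edgeR adjusted p = 0.0329), and Stat3 passed too (-0.45, edgeR adjusted p = 0.0378).

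Values near 0 changed sign. Il10ra on HFD was 0.013 with library totals and 0.012 with all 3 limma settings (-0.035 to 0.0068 with a library left out), and Stat3 on HFD was 0.018 with library totals, 0.018 with limma on log2(FPKM + 1) with or without a filter and 0.019 with log2(FPKM + 0.1) (-0.083 to 0.064). With a library left out, Lif on HFD gave -0.061 to 0.094, Il6st on HFD -0.0069 to 0.15, Il10ra on ND -0.11 to 0.074, Il6ra on ND -0.11 to 0.15 and Il6st on ND -0.037 to 0.15. For the difference between diets, Il10ra was 0.033 with library totals, 0.0055 with at least 10 counts and 0.00046 with DESeq2 (-0.089 to 0.10 with a library left out). Il6st was 0.037, 0.010 and 0.0049 in those settings (-0.089 to 0.11), and Osmr gave -0.83 to 0.087 with a library left out. In CPM, Il10 on HFD over ND was 0.042 in ARMs and 0.12 in SMs. With 2 libraries a group, Lif, Osmr and Socs1 each had under 200 counts in every library. Of the 10 genes, Lif and Osmr are the least precise, followed by Socs1.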
